A study of Mus musculus with 16 samples.

Results

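RNA from LSK cells of mouse bone marrow labelled Day2 was compared between libraries labelled Gata2 and libraries labelled WT. The 5 libraries with these labels, 2 of Day2_Gata2 and 3 of Day2_WT, were taken from the 16 of the series, and the comparison covers every gene in them. LSK cells are marrow cells that lack lineage markers and carry Sca-1 and Kit, the fraction that holds blood stem cells and early progenitors. GATA2 is a zinc finger transcription factor that these cells need. The series studies GATA2 haploinsufficiency, and its design text describes a challenge in which few sorted LSK cells were transplanted into lethally irradiated WT mice. WT stands for wild type, and the labels give Gata2 as the other group's name without an allele. They name bone marrow as the tissue of both groups and give no age, treatment or event that separates Day0 from Day2. The protocols describe lineage-negative marrow cells, a single RNA extraction kit and a choice of library kits, without naming the kit of a given library. The labels do not tie a library to its own animal or culture, and p-values therefore measure only how far libraries differ, which may be technical.

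Cells short of oxygen stabilise HIF-alpha proteins, which pair with ARNT and bind DNA at short sites with the core ACGTG or GCGTG. Their targets raise glucose uptake, glycolysis and lactate export, restrain mitochondria, and signal to vessels, and in marrow this programme is associated with stem cells in poorly oxygenated niches. HMOX1 degrades heme and is induced by heme and oxidants when the repressor BACH1 leaves DNA and NRF2 binds. NF-kB and AP-1 factors drive fast, transient responses to cytokines and stress, and ATF4 drives the response to amino acid shortage.

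Of 16569 genes that passed the count filter, 11 were called, which is 0.0664% of those tested, and all 11 fell in the libraries labelled Gata2. Calls were made at an adjusted p under 0.05 by edgeR's quasi-likelihood test with Benjamini-Hochberg adjustment over all tested genes. The 11 were Hmox1, Mt2, Bnip3, Ankrd37, Bhlhe40, Ddit4, Slc16a3, Aldoc, Ier3, Trib3 and Ndrg2. Of these, 4 were on the list of hypoxia response genes outside glycolysis, 2 on the glycolysis list, 2 on the heme, NRF2 and metal list, 1 on the immediate early list and 1 on the amino acid and unfolded protein list. Ndrg2, a gene of the N-myc downstream regulated family on chr14:51905271-51914158, was on none. It stood at 15.4, 16.6 and 19.9 CPM (counts scaled to library size, with TMM factors) in WT and at 4.25 and 4.26 CPM in the libraries labelled Gata2 (log2 fold change -2.02, SE 0.23, adjusted p = 0.0486). This edgeR fit called 0 genes as higher, with 451 higher and 776 lower at an unadjusted p under 0.05 (7.41% of those tested). Some edgeR fits with other gene filters, given below, called Gata2 as higher. By comparison, limma voom with quality weights called 0 higher and DESeq2 51 higher and 205 lower.

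The count of calls moved with single libraries. Leaving out each library in turn gave 1 call without Day2_WT replicate 1, 0 without Day2_WT replicate 2, 0 without Day2_WT replicate 3, 27 without Day2_Gata2 replicate 1 and 1 without Day2_Gata2 replicate 2. With 1 of the libraries labelled Gata2 left out, that group is 1 library, whose spread is then assumed to be that of the WT libraries. The log2 fold changes of the 11 genes stayed below 0 in all 16 alternatives run, but their calls did not all hold. Of the 11 alternatives that left no library out, Hmox1 was called in 9, and Bnip3 and Ier3 in 8. Slc16a3, Trib3, Bhlhe40 and Mt2 were called in 7, and Ddit4, Aldoc, Ndrg2 and Ankrd37 in 6. Described without a test, both libraries labelled Gata2 lay below all 3 WT libraries at 2028 genes, 12.2% of those tested, and above all 3 at 1731 genes, 10.4%, and the median log2 fold change over all tested genes was -0.01. List counts below are read against these shares.

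The promoters of called genes were searched for the hypoxia response element core and for the letters of other elements. The windows are the 250 bases before the first RefSeq start listed for each gene on GRCm38.p6, and 9 of the 11 called genes had an entry. Here 4 are printed, those with the most matches of the core. They run 5′ to 3′ on the strand of the gene, without bases that GENCODE M21 places in an exon next to the start. Capitals mark ACGTG or GCGTG on either strand (CACGT or CACGC as printed), which overlap where 2 matches share bases. The stretches of Bnip3 and Ddit4 lie directly before the annotated gene, and those of Slc16a3 and Ankrd37 lie between exons within it.
Bnip3, chr7:138909520-138909756, minus strand: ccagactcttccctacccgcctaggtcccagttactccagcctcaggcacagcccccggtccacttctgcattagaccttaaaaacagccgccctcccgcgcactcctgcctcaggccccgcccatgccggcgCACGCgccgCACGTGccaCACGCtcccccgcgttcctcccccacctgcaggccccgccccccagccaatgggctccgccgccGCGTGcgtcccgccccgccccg
Slc16a3, chr11:120948817-120949052, plus strand: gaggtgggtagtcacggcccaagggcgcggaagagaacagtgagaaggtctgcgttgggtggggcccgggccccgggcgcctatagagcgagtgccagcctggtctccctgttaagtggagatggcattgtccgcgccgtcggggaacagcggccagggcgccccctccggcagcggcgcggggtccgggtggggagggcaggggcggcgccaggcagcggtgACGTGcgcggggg
Ankrd37, chr8:45999868-46000100, minus strand: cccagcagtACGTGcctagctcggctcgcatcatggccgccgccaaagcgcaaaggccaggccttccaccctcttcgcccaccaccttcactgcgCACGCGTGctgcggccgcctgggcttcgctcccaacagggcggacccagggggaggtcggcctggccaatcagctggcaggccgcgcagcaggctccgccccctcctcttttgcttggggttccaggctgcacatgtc
Ddit4, chr10:59951835-59952020, minus strand: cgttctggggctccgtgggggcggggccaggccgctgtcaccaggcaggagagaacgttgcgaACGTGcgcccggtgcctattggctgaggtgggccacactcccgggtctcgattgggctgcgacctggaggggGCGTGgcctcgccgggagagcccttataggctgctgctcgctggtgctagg
Bnip3 had 5 matches in its window, of which CACGT and ACGTG are the same site read on both strands. Ankrd37 had 4, and Ddit4 and Slc16a3 had 2 each. Of these, 1 match each of Ankrd37 and Slc16a3 lies in exonic bases left out here. Mt2, Ier3, Trib3 and Aldoc, not printed, had 1 each, and Ndrg2 had 0. Either form stood in 8 of the 9 called genes with an entry and in 54.98% of the 11162 tested genes with one. Either form stood in 23 of 29 hypoxia genes, 24 of 33 glycolysis genes, 19 of 27 immediate early genes, 17 of 29 heme, NRF2 and metal genes and 13 of 29 NF-kB genes. The ACGTG form alone stood in 5 of the 9 called genes, in 48.28% of hypoxia genes, in 45.45% of glycolysis genes and in 21.37% of all tested genes with an entry. Of the other elements, letters like an NF-kB site stood in 7 of the 9 called genes and in 60.47% of all tested genes with an entry. They stood in 68.97% of hypoxia genes, 60.61% of glycolysis genes and 81.48% of immediate early genes. Letters of the antioxidant response element stood in 1 of the 9 called genes, against 12.17% of all. Letters of the AP-1 element stood in 1 of the 9, against 3.046% of all. All these matches describe letters in a window, not binding.

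Gata2, on chr6:88193891-88207032 of GRCm38, checks the labels. It stood at 278, 251 and 247 CPM in WT replicates 1 to 3 and at 469 and 704 CPM in the libraries labelled Gata2. The groups did not overlap, and the higher values were in the libraries labelled Gata2, with means of 259 ± 17.0 (SD, n = 3) against 587 ± 167 (SD, n = 2). Its log2 fold change was 1.18 (SE 0.18), with an edgeR adjusted p of 0.152. DESeq2 gave 1.20 with an adjusted p of 1.73e-06, and the 16 alternatives ranged from 0.87 to 1.48 with adjusted p from 1.73e-06 to 0.991. The counts cover the gene as a whole and do not show which allele or exons gave the reads. This direction is opposite to the lower level that a label of GATA2 haploinsufficiency could be read to name. What the label means for these libraries cannot be told from gene-level counts and was not tested. Every direction below is therefore that of the libraries labelled Gata2.

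Total counts ran from 51693938 to 54807949 per library. Ly6a, which encodes Sca-1, stood between 18.8 and 30.9 CPM, Kit between 391 and 625 CPM and Cd34 between 525 and 640 CPM, each with overlapping groups. Libraries labelled WT correlated at 0.983 to 0.990 with each other (Pearson's r of log2 CPM across genes, which are not independent replicates). The libraries labelled Gata2 correlated at 0.978 with each other, while Gata2 replicate 1 correlated with the WT libraries at 0.979 to 0.984 and Gata2 replicate 2 at 0.972 to 0.978. Gata2 replicate 1 was therefore closer to each WT library than to Gata2 replicate 2. Some library measures separated the groups. The share of counts on mitochondrial genes was 1.01 to 1.11% in WT and 1.22 and 1.41% in the libraries labelled Gata2. The share on genes of the annotation's TEC class, unspliced loci that still await experimental support, was 0.0314 to 0.0582% in WT and 0.0648 and 0.0702% in the others. With that share as a covariate, a setting chosen after the data were seen, 0 genes were called. Because the TEC share itself separates the groups, a fit of 5 libraries can hardly part it from the label. Values with this covariate are therefore given below as a description. The part of these shares in the results below was not tested otherwise.

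Hmox1, the inducible heme oxygenase on chr8:75093621-75100589, showed the largest fold change of the called genes. It stood at 157, 124 and 132 CPM in WT and at 5.55 and 1.85 CPM in the libraries labelled Gata2, 37.3-fold lower by the means. All WT libraries were far above both others (log2 fold change -5.22, SE 0.46, adjusted p = 0.0408). Mt2, a metal-binding metallothionein on chr8:94172664-94173568, followed with 8.78, 8.18 and 13.1 CPM in WT and 0.623 and 0.320 CPM in the others (log2 fold change -4.40, SE 0.44, adjusted p = 0.0449). Its close relative Mt1, which may share reads with it, was at 164, 167 and 210 CPM in WT and at 64.3 and 98.8 CPM, with no overlap (log2 fold change -1.14, adjusted p = 0.218).

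The heme, NRF2 and metal list held 33 tested genes, of which 13 lay apart and lower, 0 apart and higher, and 2 were called, with a median log2 fold change of -0.17. The constitutive oxygenase Hmox2 stood at 43.2 to 52.9 CPM in WT and at 52.8 and 52.2 CPM, inside the WT range. Blvra, the reductase of the biliverdin that heme oxygenase makes, overlapped, with 43.8 to 57.1 CPM in WT and 48.2 and 43 CPM (log2 fold change -0.18), and its paralog Blvrb was lower without overlap (-0.53, adjusted p = 0.675). The 5 regulators, Nfe2l2 (which encodes NRF2), Keap1, Bach1, Bach2 and Mtf1, all overlapped between groups, with log2 fold changes from 0.07 to 0.26. NRF2 targets were mixed: Nqo1 was at 19.6 to 21.4 CPM in WT and 18.3 and 22.3 CPM, and Gclm also overlapped, while Srxn1, Osgin1 and Me1 lay apart and lower (-0.42, -1.07 and -0.86). The iron exporter Slc40a1 was at 23.5, 21.6 and 23.4 CPM in WT and at 10.8 and 11.8 CPM, a log2 fold change of -1.01 (adjusted p = 0.217), and the ferritin chains Fth1 and Ftl1 overlapped.

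**Figure D1:**
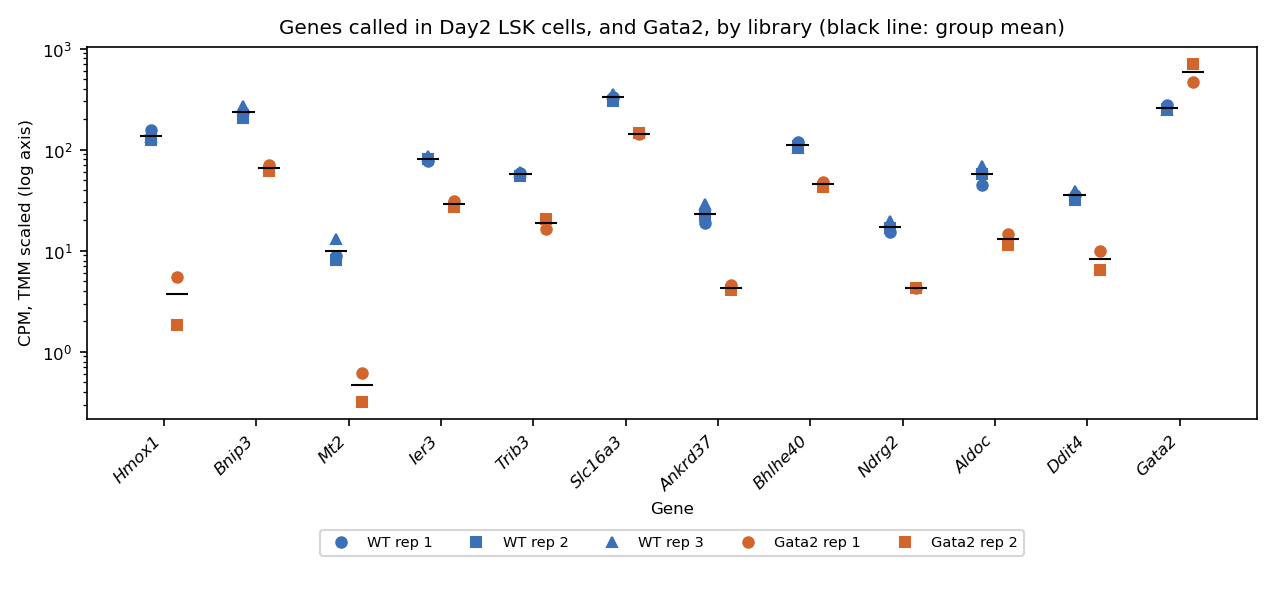
CPM (TMM scaled, log axis) of the 11 called genes and of Gata2 in each of the 5 Day2 libraries, WT in blue, libraries labelled Gata2 in orange, black lines for group means. The orange points lie below every blue point at the 11 called genes and above them at Gata2 (469 and 704 CPM).

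Hypoxia response genes outside glycolysis were lower as a group of values. Of 38 tested, 37 had a log2 fold change below 0, against 51.7% of all tested genes, 25 lay apart and lower, against 12.2% of all, 0 lay apart and higher, and 4 were called, with a median of -0.74. Among the factors themselves, Hif1a stood at 102, 102 and 85.0 CPM in WT and at 90.7 and 71.6 CPM, and overlapped, as did its partner Arnt (log2 fold changes -0.25 and -0.21). Epas1, which encodes another HIF-alpha, was under 1 CPM in every library.

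The oxygen sensors differed among themselves. Egln3, a prolyl hydroxylase that marks HIF-alpha for destruction and is itself a HIF target, was at 203, 175 and 221 CPM in WT and at 88.6 and 97.6 CPM, a log2 fold change of -1.10 (SE 0.15) that missed the threshold at an adjusted p of 0.0893. Vhl, which directs HIF-alpha to the proteasome, was at 34.7, 42.7 and 44.3 CPM and at 28.9 and 24.5 CPM (-0.60). Egln1 overlapped, with 15.9 to 19.2 CPM in WT, 14.2 CPM in Gata2 replicate 1 and 27.5 CPM in Gata2 replicate 2, so that the libraries labelled Gata2 fell on either side of WT. Hif1an and Cited2, other restraints on HIF, also overlapped.

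Genes that act on mitochondria had log2 fold changes below 0 at all 7 members tested, 6 of them without overlap. Bnip3, a mitophagy receptor on chr7:138890836-138909519 and the gene whose window holds 5 core matches, stood at 235, 204 and 268 CPM in WT and at 70.1 and 62.1 CPM (log2 fold change -1.83, SE 0.16, adjusted p = 0.0408). Its relative Bnip3l differed less, with 152, 147 and 177 CPM against 130 and 127 CPM (-0.30, adjusted p = 0.683). Both groups of Bnip3 were tight and far apart, whereas Bnip3l lay just outside the WT range. Ak4, a mitochondrial adenylate kinase, was at 115, 109 and 114 CPM and at 69.5 and 39 CPM (-1.05). Higd1a and Fam162a, small mitochondrial proteins induced by hypoxia, had log2 fold changes of -0.71 and -0.80, and the cytochrome oxidase isoform Cox4i2 one of -1.10.

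Regulators of mTORC1 and growth included 2 called genes. Ddit4, an inhibitor of mTORC1 on chr10:59949669-59951834, stood at 35.3, 31.8 and 38.8 CPM in WT and at 9.93 and 6.45 CPM (log2 fold change -2.11, SE 0.24, adjusted p = 0.0490). Bhlhe40, a transcriptional repressor on chr6:108660629-108666925, was at 120, 108 and 103 CPM and at 48.1 and 42.8 CPM (-1.28, SE 0.15, adjusted p = 0.0486). At both genes the libraries of each group lay close together. Ndrg1, another gene widely used as a hypoxia marker, overlapped, with 105 to 140 CPM in WT and 91.8 and 121 CPM (-0.22).

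Most secreted, chromatin and collagen genes on the list were also at lower values. The vessel growth factor Vegfa was at 147, 144 and 146 CPM in WT and at 87.7 and 64.9 CPM, a log2 fold change of -0.93 (adjusted p = 0.208). Stc2, a secreted glycoprotein, had -1.25, and Adm, the vasodilator adrenomedullin, had 0.582, 0.271 and 0.952 CPM in WT and no count in the libraries labelled Gata2. The histone demethylases Kdm3a and Kdm4b lay apart and lower (-0.85 and -0.53). P4ha2, a collagen prolyl hydroxylase subunit, was at 6.80, 5.86 and 10.03 CPM in WT and at 0.604 and 0.132 CPM (-4.35, adjusted p = 0.130), and P4ha1 at 150, 137 and 167 CPM and at 78.6 and 58.0 CPM (-1.15). Car9, a carbonic anhydrase that is a classical HIF target, overlapped, with 21.1 to 25.7 CPM in WT and 21.4 and 18.9 CPM. Ankrd37, an ankyrin repeat gene on chr8:45996902-46005707, was called, with 18.7, 21.8 and 29.1 CPM and 4.55 and 4.09 CPM (-2.43, SE 0.27, adjusted p = 0.0486). In all, 13 of the 38 members did not lie apart.

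Glycolysis genes were at lower values at most steps of the pathway. Of 34 tested, 22 lay apart and lower, 2 apart and higher, and 2 were called, with a median log2 fold change of -0.49. The summed level of the list was 22322, 22912 and 25956 CPM in WT and 14441 and 15953 CPM in the libraries labelled Gata2.

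At uptake, the glucose transporter Slc2a1 stood at 180, 169 and 206 CPM in WT and at 84.0 and 81.5 CPM (log2 fold change -1.16, SE 0.14), just outside the threshold at an adjusted p of 0.0564. Slc2a3 was at 452, 405 and 420 CPM and at 239 and 148 CPM (-1.13). Hexokinase genes were unequal: Hk2 had -1.03 and Hk1 -0.52, both without overlap, while Hk3 overlapped at 0.21. At the phosphofructokinase step, the liver-type Pfkl was at 907, 824 and 948 CPM in WT and at 492 and 533 CPM (-0.80, adjusted p = 0.158) and Pfkp had -0.59, while the muscle-type Pfkm overlapped at 0.06. Isoforms of the same step therefore did not all lie apart and lower.

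From aldolase down to pyruvate, Aldoc, an aldolase on chr11:78322968-78327781, was called, with 44.5, 57.1 and 69.5 CPM in WT and 14.7 and 11.3 CPM (log2 fold change -2.13, SE 0.24, adjusted p = 0.0486). The main aldolase Aldoa had 2109, 2064 and 2464 CPM and 1152 and 1520 CPM (-0.73). Eno1, the most widely expressed enolase gene, was at 2983, 3020 and 3489 CPM in WT and at 1556 and 1688 CPM (-0.96, adjusted p = 0.0893). Tpi1, Pgk1, Pgam1 and Pkm lay apart and lower, with log2 fold changes from -0.79 to -0.46, and Gapdh overlapped because Gata2 replicate 2 had 3480 CPM while replicate 1 had 2124 CPM, against 3019 to 3504 CPM in WT. The members apart and higher were the muscle enolase Eno3, at 8.26 to 10.9 CPM in WT and 12.2 and 10.95 CPM (0.28), and Pfkfb1, a phosphofructokinase regulator (0.55), while the enolase gene Eno2 overlapped. Several of these genes have processed pseudogenes, and reads shared with such copies make their counts less certain.

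At the end of the pathway, the lactate exporter Slc16a3, on chr11:120948480-120960868, was called, with 331, 303 and 355 CPM in WT and 141 and 145 CPM (log2 fold change -1.20, SE 0.13, adjusted p = 0.0468). Lactate dehydrogenase Ldha was at 3390, 3842 and 4051 CPM and at 2381 and 2045 CPM (-0.77, adjusted p = 0.217). Pdk1, a pyruvate dehydrogenase kinase, was at 286, 262 and 299 CPM and at 187 and 149 CPM (-0.75), while Pdk2, Pdk3 and the lactate carrier Slc16a1 overlapped. Of the glycogen genes, Gys1, Gbe1 and Pygl lay apart and lower (-0.80, -0.43 and -0.53).

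**Figure D2:**
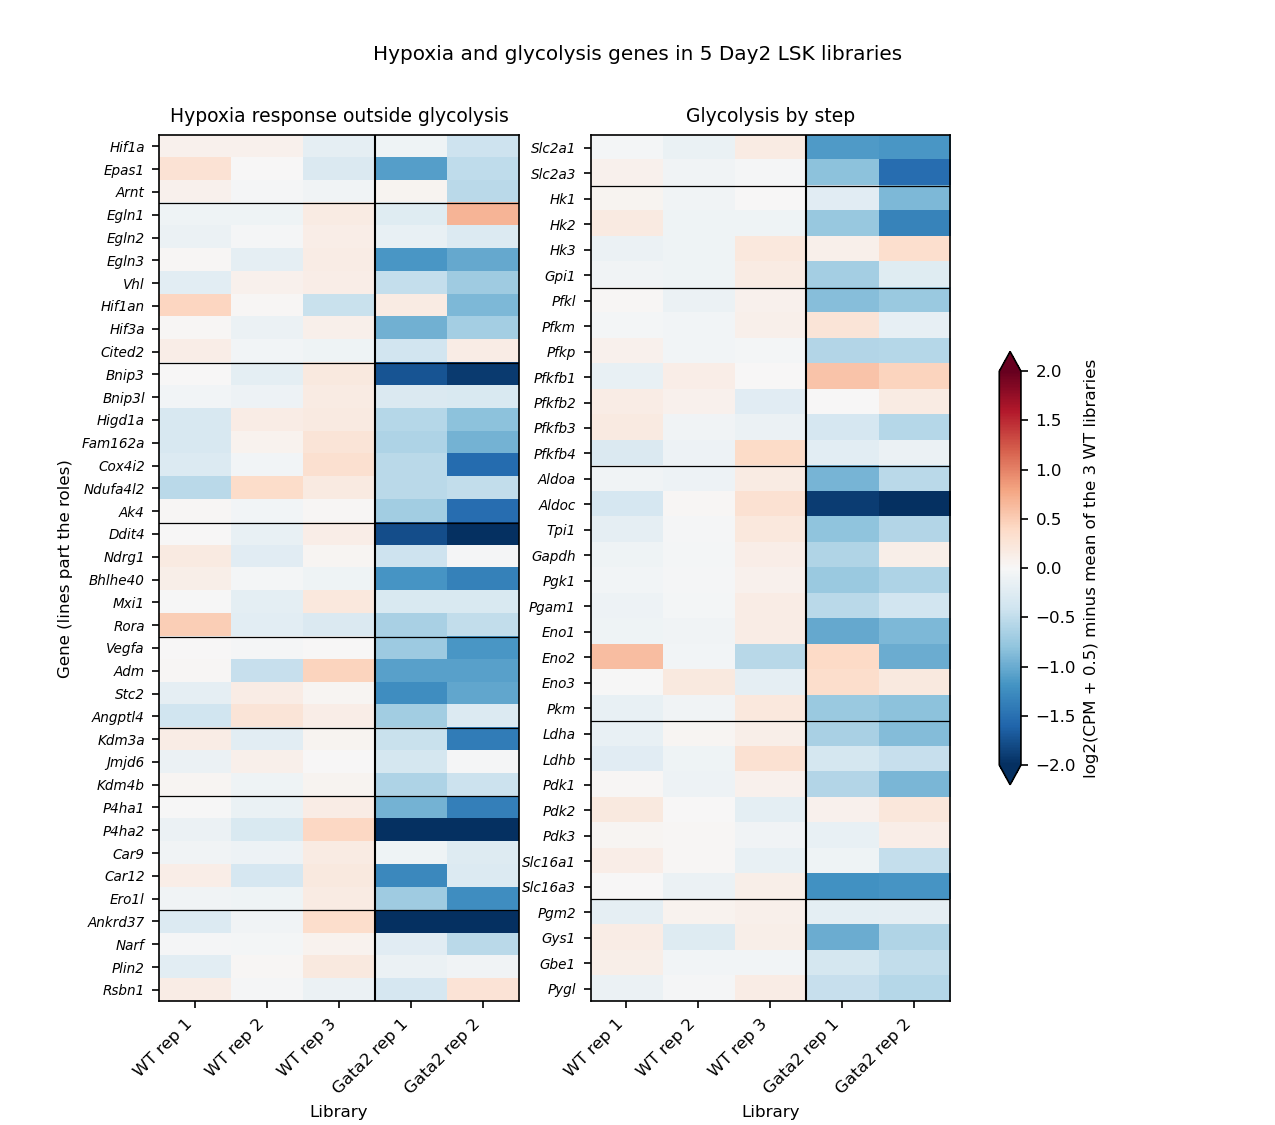
Heat map of the hypoxia (left) and glycolysis (right) members by library; colour is log2(CPM + 0.5) minus the mean of the 3 WT libraries, with the colour scale ending at the limits of its bar, and lines part the roles. Blue fills both columns labelled Gata2 at most members, with Egln1 and Gapdh among those where those columns differ.

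NF-kB and chemokine genes held 0 called of 36 tested, with 20 apart and lower, 0 apart and higher, and a median log2 fold change of -0.35, which was -0.54 without Day2_WT replicate 2 and -0.55 with the TEC share as a covariate. Nfkbia, the inhibitor that NF-kB itself induces, stood at 101, 107 and 106 CPM in WT and at 48.6 and 53.1 CPM (-1.04, SE 0.13, adjusted p = 0.0713). Tnfaip3, which encodes the deubiquitinase that ends signalling, was at 45, 38.2 and 38.3 CPM and at 22.2 and 15.6 CPM (-1.10). Of the factors, Relb was at 22, 15.9 and 32.0 CPM and at 2.94 and 6.75 CPM (-2.26, adjusted p = 0.225), Nfkb2 had -0.65, and Nfkb1, Rel and Rela overlapped. Relb and Nfkb2 are the subunits of the noncanonical arm, and no subunit passed the test.

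All 11 ligands tested had log2 fold changes below 0, 7 of them without overlap. The chemokine Ccl4 was at 7.18, 8.84 and 11.4 CPM in WT and at 2.61 and 2.81 CPM (-1.75, adjusted p = 0.199), and Ccl3 at 24.9, 27.5 and 29.4 CPM and at 16.9 and 15.2 CPM (-0.76). Il1b, which encodes an inflammatory cytokine, was at 14.4, 20.9 and 16.5 CPM and at 7.89 and 10.4 CPM (-0.91). Tnip3, a partner of the Tnfaip3 product, was at 25.2, 19.3 and 32.9 CPM and at 9.72 and 7.45 CPM (-1.59, adjusted p = 0.217). Several of these genes are also expressed by monocytes, whose markers are given below.

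Immediate early genes held 1 called of 33 tested, with 18 apart and lower, 3 apart and higher, and a median of -0.36. The called member was Ier3, a survival gene on chr17:35821684-35822923, with 77.2, 81.0 and 85.6 CPM in WT and 31.1 and 26.8 CPM (log2 fold change -1.49, SE 0.15, adjusted p = 0.0449). Atf3, a stress-induced repressor, came next at 15, 20.3 and 16.8 CPM and 4.0 and 2.77 CPM (-2.36, SE 0.28), just outside the threshold at an adjusted p of 0.0509. Jun was at 49.2, 40.4 and 39.8 CPM and at 18.5 and 19.3 CPM (-1.19, adjusted p = 0.132) and Junb at 161, 168 and 163 CPM and at 91.5 and 109 CPM (-0.71), whereas Fos overlapped (0.06). Egr1 was lower without overlap (-0.59), and WT replicate 1, at 197 CPM against 136 and 118 CPM, stood above the other WT libraries. Spred2, Dusp6 and Nr4a2 were the members apart and higher (0.44, 0.14 and 0.52).

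**Figure D3:**
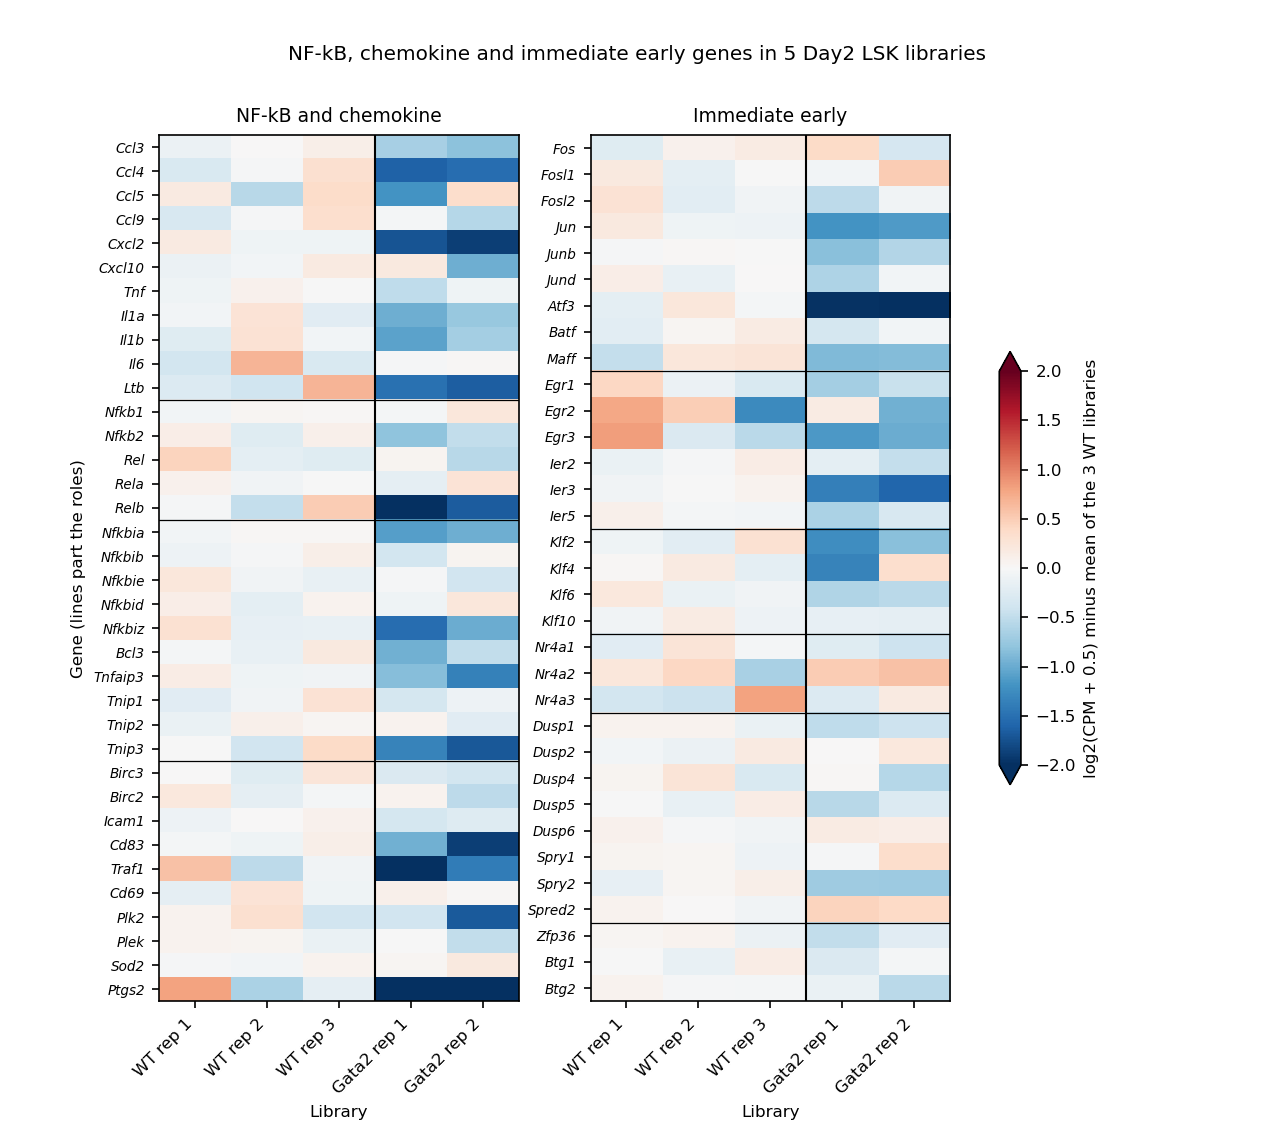
Heat map of NF-kB and chemokine genes (left) and immediate early genes (right) by library, in log2(CPM + 0.5) minus the mean of the 3 WT libraries. Relb, Cxcl2, Ptgs2 and Atf3 are dark blue in both libraries labelled Gata2, and Rela and Nfkb1 are pale.

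In the amino acid and unfolded protein list, 15 of 35 tested lay apart and lower and 0 apart and higher, with a median of -0.14. Values were lowest in the ATF4 arm, whose 8 factors had a median of -0.61. Trib3, a pseudokinase induced by ATF4, on chr2:152337422-152344032, was called, with 59.0, 54.8 and 60.0 CPM in WT and 16.5 and 20.6 CPM (-1.64, SE 0.17, adjusted p = 0.0449). Ddit3, which encodes CHOP, was at 19.1, 21.8 and 22.4 CPM and at 11.8 and 14.1 CPM (-0.70), Nupr1 had -1.22 and Ppp1r15a -0.59, while Atf4 itself overlapped. Of the 11 amino acid supply genes, 5 lay apart and lower, from the arginine transporter Slc7a3 (-1.17) to Mthfd2 (-0.19), with asparagine synthetase Asns and Psph among them (-0.21 and -0.26). Psat1, Phgdh and Shmt2, other enzymes of serine and glycine synthesis, overlapped, at 0.02 to 0.15. Chaperones differed little: Hspa5 had -0.28, and the 10 chaperones ranged from -0.30 to -0.05.

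Sterol synthesis genes had log2 fold changes below 0 at 15 of 16 members tested, 10 of them without overlap, and 0 were called. Insig1, which holds the sterol-sensing machinery in the endoplasmic reticulum, was at 109, 107 and 104 CPM in WT and at 88.4 and 60.9 CPM (-0.51, adjusted p = 0.569). Desaturase Scd1 was at 47.2, 36.8 and 32.0 CPM and at 11 and 16.2 CPM (-1.51, adjusted p = 0.198), and Scd2 had -0.56, while Acaca, the carboxylase at the start of fatty acid synthesis, was apart and higher (0.67).

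Mitochondrial genes split by genome. All 10 protein-coding genes of the mitochondrial genome that were tested had log2 fold changes above 0, 8 of them apart and higher against 10.4% of all tested genes, with a median of 0.53 and 0 called. mt-Nd4, a complex I subunit, stood at 288, 271 and 238 CPM in WT and at 403 and 569 CPM (0.87, SE 0.17, adjusted p = 0.225). mt-Cytb, of complex III, was at 1755, 1729 and 1553 CPM and at 2329 and 2693 CPM (0.58, adjusted p = 0.272), while mt-Co1 overlapped (0.22). mt-Co2, mt-Co3 and mt-Atp6 stood at under 8 CPM in every library; nuclear copies of mitochondrial sequence can share their reads, which makes these counts uncertain. Of the 21 nuclear genes of oxidative phosphorylation, 0 lay apart in either direction, and the 10 of complexes II to IV had a median of -0.20.

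Blood transcription factors that work with GATA2 showed little difference: of 18 tested, 2 lay apart and higher, 0 apart and lower, and the median was 0.15, which turned to -0.04 without Day2_Gata2 replicate 2 and with the TEC share as a covariate. The genes apart were Gata2 itself and Myb, at 395, 363 and 385 CPM in WT and 429 and 447 CPM (0.20, adjusted p = 0.770). Tal1, Lyl1, Zfpm1 and Cbfa2t3 had their highest value in Gata2 replicate 2, where Tal1 was at 72.5 CPM against 36.6 to 47.6 CPM in the other libraries, while replicate 1 was not above the WT range at any of the 4. Gata2 replicate 2 was also the library with the highest Gata2. Runx1, Lmo2, Fli1 and Gata1 overlapped, with log2 fold changes from 0.04 to 0.36. The 5 members below 0 also overlapped: Erg (-0.34), Gfi1 (-0.17), Ldb1 (-0.13), Cebpa (-0.06) and Nfe2 (-0.002).

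Among stem cell genes, 7 of 32 lay apart and lower and 1 apart and higher, with a median of -0.22 and 0 called. That median was -0.11 without Day2_Gata2 replicate 1 and -0.42 with the TEC share as a covariate. Fgd5, used as a marker of stem cells, was at 4.58, 8.39 and 9.67 CPM in WT and at 2.62 and 3.30 CPM (-1.35, adjusted p = 0.456), and the surface marker Procr was at 3.80, 5.88 and 3.24 CPM and at 3.06 and 1.51 CPM (-0.91). Hoxa10 had -0.93, and Cdkn1a, which encodes the cycle inhibitor p21, had -0.52. Of the 12 transcription factors on the list, 2 lay apart and lower, Hoxa10 and Mllt3 (-0.36), and 1 apart and higher, Hoxa7 (0.41). Hlf, Mecom, Meis1 and Hoxa9, factors of stem cell identity, were among those that overlapped. S phase genes had 1 apart and lower and 3 apart and higher of 26, and G2 and mitosis genes 1 and 5 of 21, with medians of 0.03 and 0.12. Mki67 stood at 362, 281 and 232 CPM in WT and at 355 and 479 CPM, with overlap. In bulk samples, fewer cells of a type and less RNA per cell cannot be told apart.

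Values were higher at some lymphoid genes, none of them called. Dntt, the terminal transferase of early lymphoid cells, was at 23.9, 24.7 and 25.7 CPM in WT and at 41.9 and 44.8 CPM (0.81, SE 0.15, adjusted p = 0.218). Flt3, the receptor of multipotent and lymphoid-primed progenitors, was at 65.5, 94.9 and 96.05 CPM and at 96.09 and 120 CPM (0.34), where Gata2 replicate 1 was barely above the highest WT library. Clec9a, a dendritic cell receptor, was at 1.82, 1.91 and 1.92 CPM and at 5.74 and 4.88 CPM (1.49, adjusted p = 0.225), but 8 of the 14 dendritic genes tested were below 0, with a list median of -0.08. The lymphoid priming list had 4 of 11 apart and higher and 1 apart and lower. The other genes of lowest p among those that were higher included Kcng1, a potassium channel subunit (1.47, adjusted p = 0.208), and Ino80, a chromatin remodeller (1.17, adjusted p = 0.217).

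Markers of mature myeloid cells were mostly at lower levels in the libraries labelled Gata2, and WT replicate 1 was the lowest WT library at several of them. The monocyte and macrophage list had 6 of 20 apart and lower and 2 apart and higher, the latter with log2 fold changes up to 2.48. Its median was -0.63, and its summed levels were 1343 to 2111 CPM in WT and 1340 and 1097 CPM in the others. Apoe was at 72.6, 96.9 and 134 CPM in WT and at 45.1 and 50.8 CPM (-1.08, adjusted p = 0.312), and the lysozyme gene Lyz2 at 686, 995 and 1226 CPM and at 696 and 559 CPM, with overlap. The neutrophil list had 5 of 14 apart and lower and 0 apart and higher, but 5 members had log2 fold changes above 0, up to 2.83. Its median of -0.38 was 0.04 without Day2_Gata2 replicate 1 and 0.20 with the TEC covariate. Its summed levels were 1053 to 2026 CPM in WT and 748 and 1177 CPM in the others. S100a8 and S100a9, the calprotectin subunits, were at 133 and 159 CPM in WT replicate 1, at 318 to 395 CPM in the other WT libraries and at 102 to 131 CPM in the libraries labelled Gata2. MHC class II genes had 3 of 10 apart and lower, among them Cd74 (-0.80) and H2-Ab1 (-0.97). Early granulocyte and monocyte genes, Mpo, Elane and Prtn3 among them, had 1 of 13 apart and lower and 0 apart and higher. The part of mature myeloid cells in the inflammatory differences was not tested.

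The defining T cell genes Cd3d, Cd3e, Cd3g and Trac, the B cell genes Pax5, Ebf1 and Ms4a1, and the stromal genes Cxcl12, Col1a1 and Pdgfra did not pass the count filter. Erythroid and megakaryocyte genes lay apart and lower at larger shares than the 12.2% of all tested genes. The erythroid list had 8 of 17 apart and lower and 2 apart and higher, with Klf1 at 1.94 to 3.07 CPM in WT and 0.831 and 1.68 CPM. Some of the 8 were near the floor, such as Rhd, at 0.133 to 1.68 CPM in WT and under 0.08 CPM in the others. The 7 globin and heme members tested had a median of -0.04, with 3 above 0. Summed levels of the whole list were 997 to 1125 CPM in WT and 1104 and 1032 CPM, with overlap. The megakaryocyte and platelet list had 6 of 18 apart and lower, with Thbs1, thrombospondin, at 818, 708 and 745 CPM and at 561 and 280 CPM (-0.85, adjusted p = 0.512) and summed levels of 3641 to 4181 CPM in WT and 3197 and 2958 CPM. The mast cell and basophil list had 3 of 13 apart and lower and 2 apart and higher, the latter Cpa3 and Mcpt8.

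**Figure D4:**
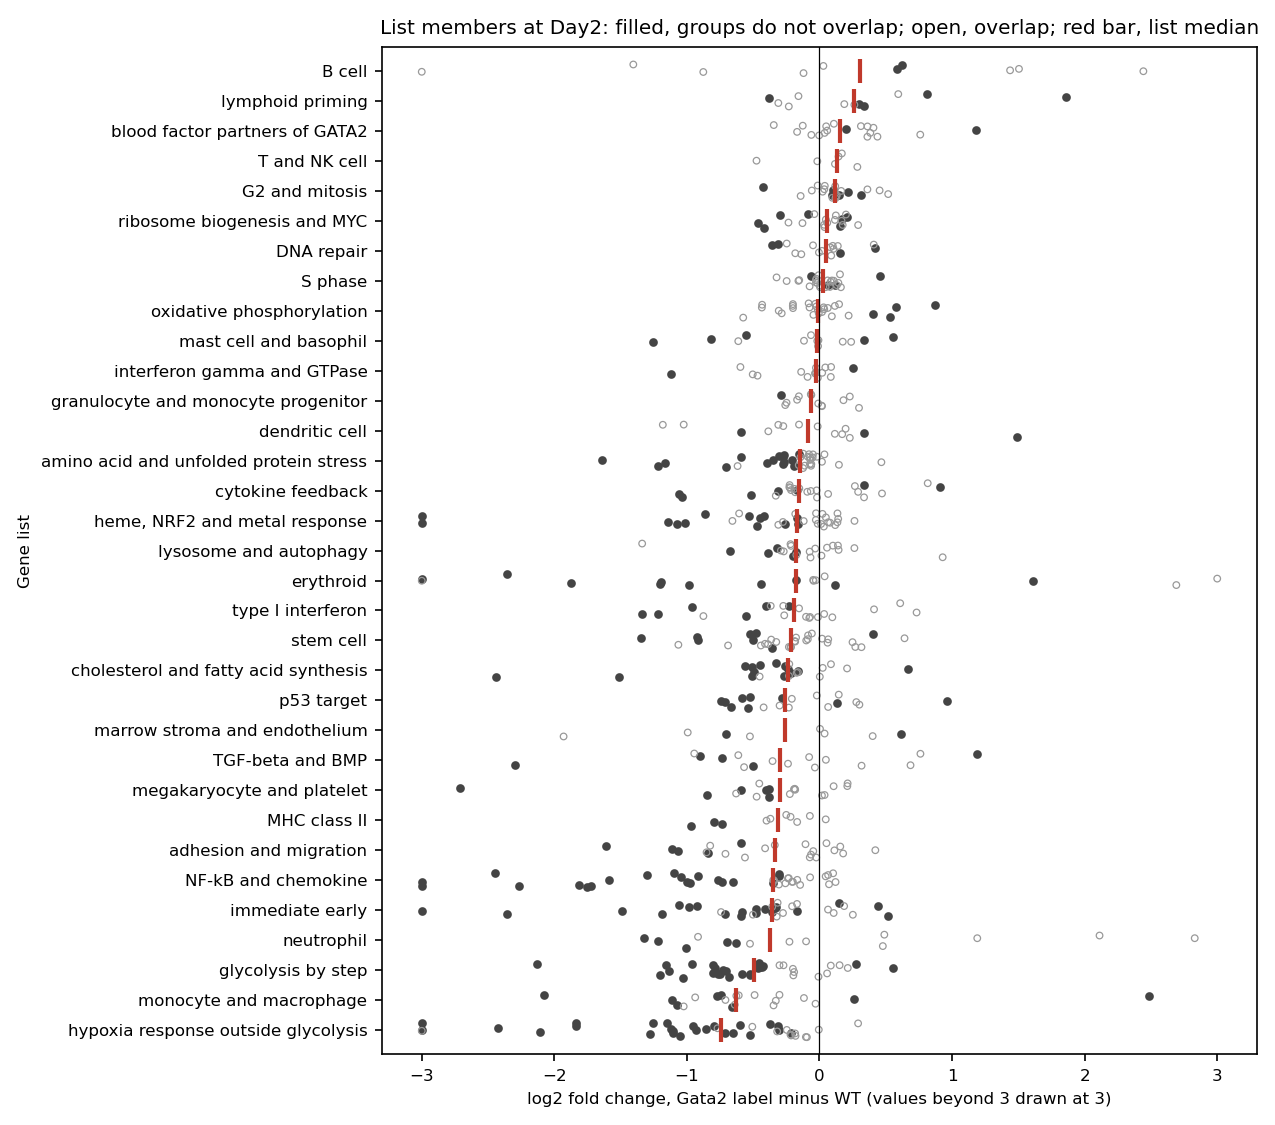
Log2 fold change (libraries labelled Gata2 minus WT) of each tested member of the 33 lists, ordered by list median (red bars); filled points are members whose groups do not overlap, open points overlap. Hypoxia has the lowest median (-0.74), monocyte and macrophage genes follow (-0.63) and glycolysis genes come next (-0.49).

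The hypoxia and glycolysis medians stayed below 0 under every alternative run. The hypoxia median ranged from -0.85 without Day2_Gata2 replicate 1 to -0.62 without Day2_Gata2 replicate 2 when single libraries were left out, and was -0.52 with the TEC share as a covariate. The glycolysis median ranged from -0.56 to -0.50 over the libraries left out and was -0.48 with that covariate. The monocyte and macrophage median was -0.11 with the covariate and -0.39 without Day2_WT replicate 3. Medians of other lists changed sign, among them B cell genes (0.31, and -1.29 without Day2_Gata2 replicate 2), MHC class II genes (-0.31, and 0.03 with the covariate), cytokine feedback genes (-0.15, and 0.05 without Day2_Gata2 replicate 1), and mast cell and basophil genes (-0.51 without Day2_Gata2 replicate 1 and 0.29 without Day2_Gata2 replicate 2).

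**Figure D5:**
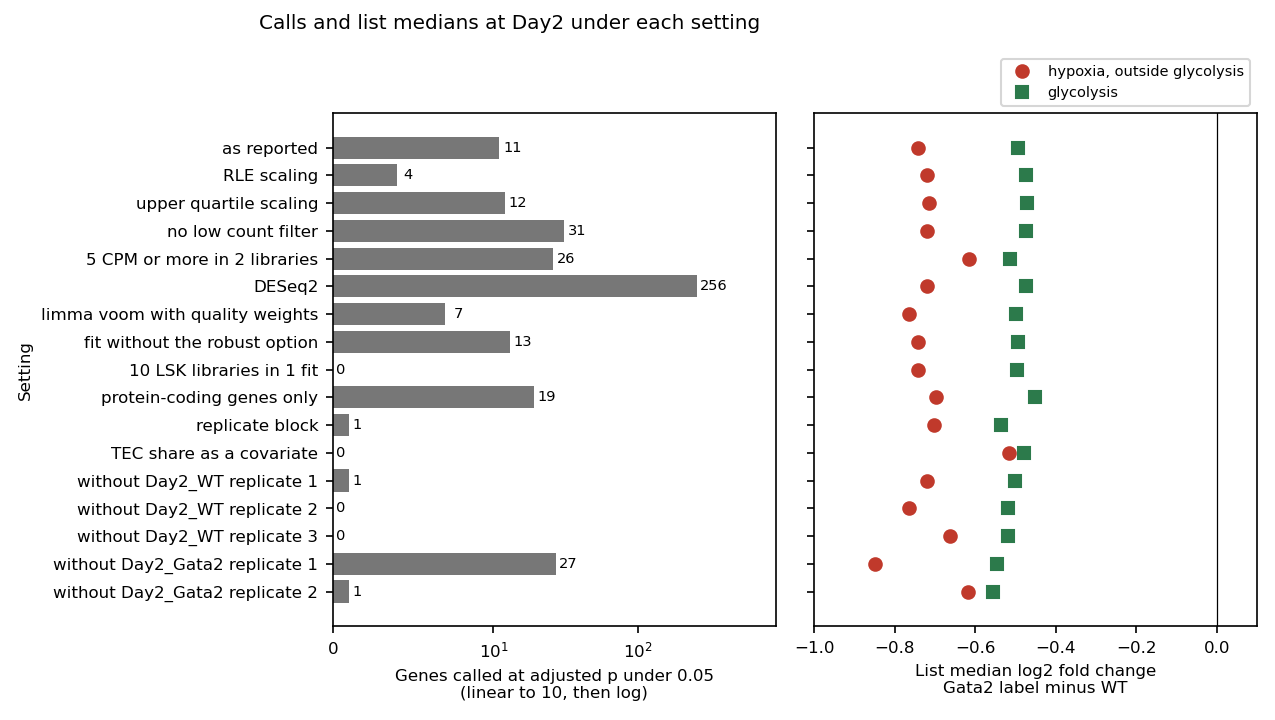
Genes called (left, bars, linear to 10 and log beyond) and the medians of the hypoxia and glycolysis lists (right, points) under each setting. Calls run from 0 to 256, while both medians stay below 0 in every setting drawn.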

How the data were processed

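The count table was deposited by the authors as whole-number counts per Ensembl gene ID, 45706 IDs in all, of which GENCODE M21 (GRCm38, the build also called mm10) gave a symbol to 45143. The submitters' processing notes name Trimmomatic 0.38, STAR 2.5.2b and mm10. How reads were assigned to genes, and whether strand was used, is not given in the sources used here, and overlapping, antisense and near-identical genes may share reads.

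Counts of the 5 libraries were tested with edgeR 4.0.16 in R 4.3.3 (TMM, filterByExpr defaults, robust quasi-likelihood test, Benjamini-Hochberg over all tested genes, threshold 0.05). The procedure was run on simulated counts with large fold changes set in some genes. Smaller changes and the library shares that separated the groups were not simulated. Levels are CPM from the counts; SE is the log2 fold change over the root of F. No pair of libraries agreed within sampling noise (chi-square).

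The comparison and the 33 lists (692 genes, 663 tested) were chosen with earlier results of these data known. Named genes were Gata2, called genes, the 15 genes of lowest p in each direction (groups apart, mean of the higher group at least 5 CPM) and, by p, the first 3 members of each list whose share of members apart was 1.5 times that of all genes or more; other members were named by role after their values were seen. Alternatives were RLE and upper quartile scaling, other count filters, DESeq2 1.42.0, limma 3.58.1 voom, a fit without the robust option, the 10 LSK libraries in 1 fit, protein-coding genes, the replicate number as a block, each library left out and, added after the data were seen, the TEC share as a covariate. Promoter sequences are RefSeq's (GRCm38.p6). Some members of the sterol list are not reported here by name.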

Additional observations from a re-analysis of the deposited data

How the results depend on the processing

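The count of 11 called genes, all lower, was 12 with upper quartile scaling and 13 without the robust option. It was 4 with RLE scaling, 31 with no low count filter, 26 with a filter of 5 CPM in 2 libraries, 256 with DESeq2, 7 with limma voom, 0 with the 10 LSK libraries in 1 fit, 19 with protein-coding genes only, 1 with the replicate number as a block and 0 with the TEC share as a covariate, and from 0 to 27 when single libraries were left out; the cause was not tested. The Gata2 log2 fold change of 1.18 passed the threshold with no low count filter (1.20), with the 5 CPM filter (1.19), with DESeq2 (1.20), with protein-coding genes only (1.23) and, over single libraries left out, ranged from 0.87 to 1.48. With the replicate block it was 1.12 (adjusted p = 0.739). The numbers pair only 2 libraries of each group, and Day2_WT replicate 3 has no partner. Deviations of same-numbered libraries from their group means correlated at -0.07 and -0.08 across 12502 genes. With 2 libraries labelled Gata2, their deviations mirror each other, so these values are not separate checks and cannot decide whether libraries are paired.

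Of the values of named genes under all alternatives, 1225 kept their direction and side of the threshold, 71 newly passed it, 93 no longer passed it and 7 changed sign. Only the 11 called genes could stop passing, so the 93 values are all theirs. Among the values of these 11 genes, calls were lost more often than kept. With the TEC share as a covariate gene S100a9 was 0.0769, gene S100a8 0.21, gene Mki67 -0.0831 and gene Cd79a -1.18. With the replicate block gene Cd79a was -0.16. Over single libraries left out, gene Cd79a ran from -6.23 to 3.47 and gene Foxo3 from -0.17 to 1.58, both lowest without Day2_Gata2 replicate 2. Depth limits mainly genes near the count filter, and 2 libraries in a group limit the test.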

Other observations

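Some genes outside the groups above also lay apart. Tgm2, which encodes transglutaminase, stood at 192, 147 and 167 CPM in WT and at 70.6 and 39.8 CPM in the libraries labelled Gata2 (log2 fold change -1.61, edgeR adjusted p = 0.158), and the annexin Anxa2 at 134, 167 and 239 CPM and at 85.9 and 85.5 CPM (-1.07, adjusted p = 0.285). Id1 and Id2, inhibitors of basic helix-loop-helix factors and targets of BMP signalling, had -0.90 and -0.74, while Ski, a repressor of TGF-beta signalling, was at 9.94 to 13.3 CPM in WT and at 15.2 and 37 CPM (1.19, adjusted p = 0.480). Among p53 targets, Bbc3, which encodes the death factor PUMA, was at 51.0, 60.0 and 60.1 CPM and at 31.9 and 36.1 CPM (-0.74, adjusted p = 0.257), and 7 of 18 members lay apart and lower and 2 apart and higher. The type I interferon list had 6 of 20 apart and lower and 0 apart and higher, and its median of -0.19 was 0.18 with the TEC share as a covariate. Rsad2, an antiviral gene, was at 13.5, 7.58 and 14.4 CPM and at 3.08 and 6.28 CPM (-1.34, adjusted p = 0.491). Among cytokine feedback genes, Socs3 was at 46.1, 43.7 and 71.8 CPM and at 30.4 and 22.3 CPM (-1.03) and Osm had -1.06, while Ccnd1, a cyclin of cycle entry, was at 26.5, 18.8 and 16.3 CPM and at 29.4 and 47.6 CPM (0.91). None of these genes was called.

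Counts of the remaining lists are read against the shares of all tested genes, 12.2% apart and lower and 10.4% apart and higher. DNA repair genes had 2 of 16 in each direction, ribosome biogenesis and MYC genes 4 of 20 lower and 3 higher, interferon gamma and GTPase genes 1 of 16 in each direction, lysosome and autophagy genes 5 of 21 lower (23.81%) and 0 higher, adhesion and migration genes 5 of 21 lower and 0 higher, TGF-beta and BMP genes 4 of 16 lower and 1 higher, cytokine feedback genes 5 of 25 lower and 2 higher, and dendritic cell genes 1 of 14 lower and 2 higher. B cell genes had 0 of 10 lower and 2 higher, T and NK cell genes 0 of 6 in either direction, and marrow stroma and endothelium genes 1 of 8 in each direction.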
